A study of Mus musculus with 6 samples.

Results

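The contractile apparatus of smooth muscle was followed through 10 genes: Acta2, Actg2, Myh11, Tagln, Cnn1, Smtn, Lmod1, Synpo2, Des and Myocd. They were taken by gene symbol from count tables of 46603 gene identifiers, in which each symbol stood for 1 identifier. A count filter left 15226 genes for testing, and 9 of the 10 contractile genes passed it. Myocd did not. The counts came from poly(A) RNA of cultured EGCs (enteric glial cells, which support the neurons in the wall of the bowel), and the study profiled these cells to learn which factors they make that act on monocytes. Cells digested from complete intestines of C57BL/6J embryos (mouse, E14.5) were grown as neurospheres, floating clusters of progenitors, and then as an adherent layer in medium with serum until confluent. There were 3 control libraries from cells with no treatment and 3 libraries from cells given lipopolysaccharide (LPS, a component of the bacterial outer membrane) at 100 ng/ml for 12 h. All 6 shared strain, age, tissue of origin and culture. The labels number the replicates but do not say whether each came from its own litter or culture, so the p-values below measure the spread between these samples, which may be technical. The culture description that accompanies the series names no step that selects glia, and whole intestine at this age also holds mesenchymal and smooth muscle precursors.

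Smooth muscle cells contract when myosin slides along actin filaments, after calcium and calmodulin switch on the kinase that phosphorylates the myosin regulatory light chain. Most genes of this apparatus carry CArG boxes, the sites of serum response factor (SRF), and are driven by SRF together with the coactivator myocardin (the product of Myocd) or its relatives, the myocardin-related transcription factors. In the gut wall these genes mark the muscle layers, but several of them, Acta2 and Tagln above all, are also made by myofibroblasts and by other cells kept on a stiff surface with serum.

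Under LPS, 7 of the 9 tested contractile genes fell, and none was called higher. The 7 were Acta2, Actg2, Myh11, Tagln, Cnn1, Lmod1 and Des, by 2.18-fold (Tagln) to 3.84-fold (Myh11). Smtn and Synpo2 were not called. The edgeR quasi-likelihood test made a call where the p-value, adjusted over all 15226 genes, was under 0.05, and it called 6.71% of the tested genes lower. The median log2 fold change of the 9 was -1.82, and that of all tested genes was -0.02. All 7 were at least 2-fold lower, as were 2.98% of the tested genes. In the same 7 the LPS libraries all lay under the control libraries, a pattern seen in 19.4% of the tested genes. At an unadjusted p under 0.05, edgeR gave 7 lower and 0 higher, against 16.0% of the tested genes lower and 16.1% higher at that threshold, and no alternative test or setting called any of the 9 higher. In these bulk libraries, fewer cells that express the genes and less RNA per cell cannot be told apart.

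The total per library lay between 18775316 and 23664312 counts. Levels are given as CPM, counts scaled to a common library size, with sizes corrected by trimmed mean of M-values (TMM) factors. Replicate 3 stood apart in both groups: its deviation from the group mean was opposite to that of replicates 1 and 2 across genes (r from -0.564 to -0.396 between the replicate 3 library of one group and replicates 1 and 2 of the other). Its 8 macrophage markers summed to 10692 CPM in control and 17413 CPM in LPS, against 3662 to 4799 CPM in the other 4 libraries. Among the 8, Adgre1 (the F4/80 antigen) was called higher in LPS (log2 fold change 2.78, edgeR adjusted p = 0.0452), but not when replicate 1 or 2 of either group was left out (0.0663 to 0.169). Mrc1 (the mannose receptor CD206) was at 197.0, 331.4 and 752.5 CPM in control and 9.29, 10.4 and 131.3 CPM in LPS, without a call (-3.08, edgeR adjusted p = 0.145) except with the replicate block (-3.92, 0.0124), without LPS replicate 3 (0.00873) or without both replicate 3 libraries (4.49e-05). Under the block 3 of the 8 were called lower and 3 higher, against 14.9% of all tested genes called lower and 15.4% higher. The labelled cell type was present but not alone. Sox10, the transcription factor that defines enteric glia, lay between 73.8 and 101 CPM in the 6 libraries and Gfap, a glial filament protein, between 2.23 and 7.22 CPM, while 8 mesenchymal markers summed to 16603 to 17438 CPM. The 7 glial markers, Sox10 and Gfap among them, summed to 263.6 to 377.0 CPM in control and 306.2 to 323.9 CPM in LPS. Of the 7, edgeR called S100b, a calcium-binding protein of glia, lower (log2 fold change -1.91, adjusted p = 0.0238) and Fabp7, a fatty acid binding protein of glia and their progenitors, higher (1.29, 0.0122). Sox10 and Gfap were not called (-0.19 and -0.04, edgeR adjusted p = 0.332 and 0.967), though Sox10 was lower without both replicate 3 libraries (-0.27, 0.0262), where 4 of the 7 were called lower and 2 higher, against 20.4% of all tested genes called lower and 22.6% higher in that fit. S100b lost its call without replicate 1 or 2 of either group (edgeR adjusted p from 0.0607 to 0.0906), and Fabp7 without control replicate 1 or 2 or LPS replicate 2 (0.0538 to 0.0723). The part of the glial cells in the changes below was not tested. Myod1, Myog, Ckm, Myh6 and Myh7, which define striated muscle, were at or under the floor of 3 counts in every library.

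The genes are all protein coding and lie at the following places in GRCm38 (GENCODE M21). Acta2 is at chr19:34241090-34255590 on the minus strand (ENSMUSG00000035783), Actg2 at chr6:83512905-83536265 on the minus strand (ENSMUSG00000059430), and Myh11 at chr16:14194535-14291372 on the minus strand (ENSMUSG00000018830). Tagln is at chr9:45929619-45936058 on the minus strand (ENSMUSG00000032085) and Cnn1 at chr9:22099216-22109630 on the plus strand (ENSMUSG00000001349). Lmod1 is at chr1:135324807-135368065 (ENSMUSG00000048096) and Des at chr1:75360329-75368579 (ENSMUSG00000026208), both on the plus strand. Smtn is at chr11:3517523-3540612 (ENSMUSG00000020439), Myocd at chr11:65176561-65269989 (ENSMUSG00000020542) and Synpo2 at chr3:123076519-123236149 (ENSMUSG00000050315), all on the minus strand. Counts cover exons. Stretches of 50 bases shared with another gene made up at most 0.34% of the exons (Myh11, with Myh9).

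The promoter table of RefSeq (GRCm38.p6, 250 bases before to 50 bases after each start) held 6 of the genes: Acta2, Cnn1, Des, Lmod1, Smtn and Synpo2. Actg2, Myh11, Tagln and Myocd had no entry. Both strands were searched for the CArG box. No exact match was found in the 6, and 1.63% of all 32851 promoters in the table held one. With 1 mismatch allowed, Acta2 and Lmod1 each held 2 sites. At least 1 such site was in 21.1% of all promoters, and 2 or more in 3.70%. The 4 sites are shown because SRF is the regulator these genes are best known for, with the 10 bases of the site in capitals and 10 bases on either side. The first Lmod1 site starts 189 bases and the second 164 bases before the RefSeq start, and those of Acta2 start 84 and 34 bases before it. The Acta2 sites also lie within a first exon that GENCODE places further upstream.
Lmod1 site at chr1:135324614-135324643, plus strand: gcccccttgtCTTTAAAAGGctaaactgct
Lmod1 site at chr1:135324639-135324668, plus strand: ctgctctgtaCTAAATTTGGtcacgcagcg
Acta2 site at chr19:34255438-34255467, minus strand: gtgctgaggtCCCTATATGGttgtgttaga
Acta2 site at chr19:34255388-34255417, minus strand: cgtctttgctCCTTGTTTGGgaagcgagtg

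These matches describe the letters in these windows. Acta2 and Lmod1, with near matches, fell under LPS, and so did Cnn1 and Des, without a near match. Smtn and Synpo2, also without a near match, were not called. A relation between the sites and the change was not tested.

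**Figure D1:**
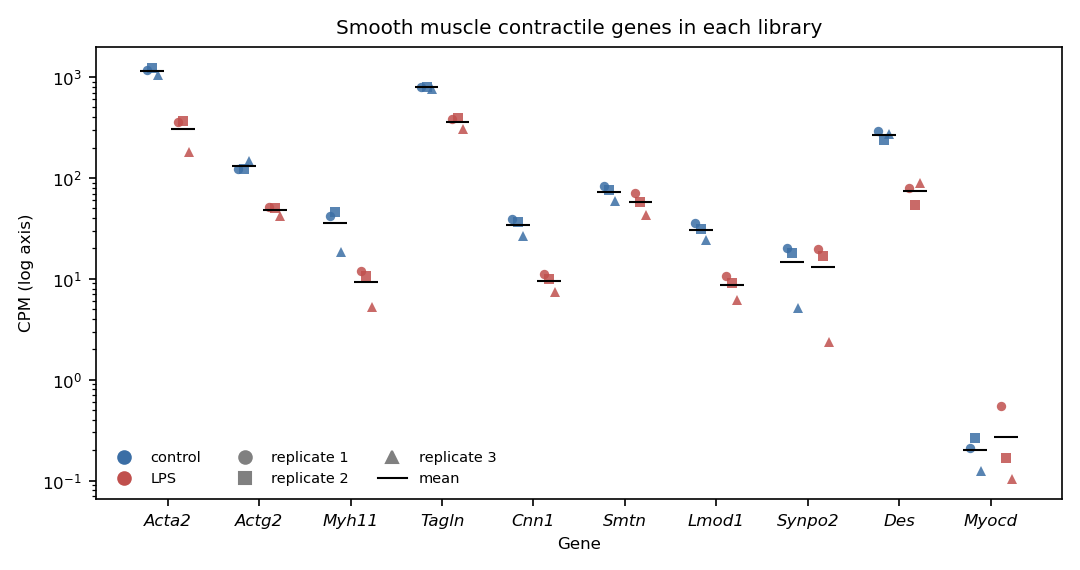
CPM of the 10 contractile genes on a log axis, with each library as a point (blue, control; red, LPS; the shape gives the replicate number) and the group mean of 3 libraries as a line. For Acta2, Actg2, Myh11, Tagln, Cnn1, Lmod1 and Des the red points all lie under the blue ones, while Smtn and Synpo2 overlap and Myocd is near the floor of 3 counts.

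The thick and thin filaments were examined first. Acta2 encodes smooth muscle α-actin, the main actin of vascular muscle and of myofibroblasts. It was at 1188, 1243 and 1039 CPM in control replicates 1, 2 and 3 and at 359.7, 365.7 and 182.4 CPM in LPS replicates 1, 2 and 3. The groups did not overlap, and LPS replicate 3 was the lowest library. Acta2 was 3.82-fold lower in LPS (log2 fold change -1.93, SE 0.29, edgeR adjusted p = 0.0117). The call was lost without control replicate 1 (edgeR adjusted p = 0.0549) or control replicate 2 (0.0636), with log2 fold changes of -1.90 and -1.87.

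Actg2 encodes γ-actin of enteric smooth muscle, the actin most typical of visceral muscle. Its values were 123.0, 122.1 and 147.6 CPM in control and 51.7, 49.99 and 41.98 CPM in LPS. Control replicate 3 was the highest library for Actg2, unlike most of the other genes. The groups were apart by more than their spread, with means of 131 ± 14.48 CPM (SD, n = 3) in control and 47.9 ± 5.19 CPM (SD, n = 3) in LPS. The log2 fold change was -1.45 (SE 0.12, edgeR adjusted p = 0.00198).

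Myh11 encodes the smooth muscle myosin heavy chain, the most specific of these genes for mature smooth muscle. It was at 42.4, 46.4 and 18.5 CPM in control and at 12.0, 10.7 and 5.23 CPM in LPS. Replicate 3 was lowest in both groups, and the lowest control library still lay above the highest LPS library. The log2 fold change was -1.94 (SE 0.46, edgeR adjusted p = 0.0408). Of the 6 fits with a library left out, only that without control replicate 3 kept the call (edgeR adjusted p = 0.0215), and the others gave adjusted p-values from 0.0512 to 0.144, with log2 fold changes from -2.16 to -1.66. limma-voom gave 0.0708.

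Proteins that bind the actin filament came next. Tagln encodes transgelin (SM22α), which binds actin and is an early marker of the smooth muscle lineage. It was at 799.0, 804.8 and 763.1 CPM in control and 387.1, 391.9 and 308.2 CPM in LPS. The control libraries lay close together and well above all LPS libraries. Tagln was 2.18-fold lower (log2 fold change -1.12, SE 0.12, edgeR adjusted p = 0.00379), the smallest of the 7 called changes. Exons of Pcsk7 and of Gm48529, on the other strand, overlap 67.9% of the exon bases of Tagln. The labels name a stranded library kit, but the strand setting of the counting is not given in the sources used here. Pcsk7, a protease gene, ranged from 30.8 to 34.8 CPM in the control libraries and from 36.5 to 49.8 CPM in the LPS libraries (log2 fold change 0.37, edgeR adjusted p = 0.122). It was called higher in edgeR with the replicate block (0.36, adjusted p = 0.0380) and without both replicate 3 libraries (0.31, 0.0172).

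Cnn1 encodes calponin 1, which binds actin and slows the myosin ATPase. It was at 38.7, 36.9 and 26.9 CPM in control and 11.1, 9.92 and 7.33 CPM in LPS, without overlap. The log2 fold change was -1.86 (SE 0.22, edgeR adjusted p = 0.00534).

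Lmod1 encodes leiomodin 1, which starts new actin filaments in smooth muscle. It was at 35.7, 31.4 and 24.2 CPM in control and 10.6, 9.08 and 6.23 CPM in LPS. The groups did not overlap, and replicate 3 was lowest in each. Lmod1 was 3.52-fold lower (log2 fold change -1.82, SE 0.24, edgeR adjusted p = 0.00866), and the adjusted p was 0.0533 without control replicate 2.

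Des encodes desmin, the intermediate filament protein of muscle cells. It was at 289.3, 238.3 and 271.4 CPM in control and 78.8, 53.9 and 88.9 CPM in LPS. Here replicate 2 was lowest in each group, and the groups were apart. Des was 3.60-fold lower (log2 fold change -1.85, SE 0.20, edgeR adjusted p = 0.00440). A gene on the other strand, Gm15179, overlaps 5.86% of its exon bases.

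The 2 tested genes without a call were Smtn and Synpo2. Smtn encodes smoothelin, a protein bound to actin filaments of contractile smooth muscle. It was at 82.6, 75.8 and 58.6 CPM in control and 70.9, 58.4 and 42.7 CPM in LPS. The groups overlapped (log2 fold change -0.34, 95% confidence interval -0.87 to 0.20, edgeR adjusted p = 0.345). With the replicate number as a block in the edgeR fit, Smtn was called lower (-0.35, adjusted p = 0.0261), among 14.9% of tested genes called lower in that fit. Genes on the other strand, Gm11946 and Gm11947, overlap 17.2% of its exon bases.

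Synpo2 encodes synaptopodin 2 (myopodin), an actin-bundling protein of smooth muscle and of the Z-disc of striated muscle. It was at 20.4, 18.1 and 5.12 CPM in control and 19.7, 16.9 and 2.36 CPM in LPS. The difference between replicate 3 and the other libraries was far larger than that between the groups. The log2 fold change was -0.16 with a 95% confidence interval from -2.19 to 1.87 (edgeR adjusted p = 0.916), so neither a 2-fold fall nor a 2-fold rise lies outside it. The sign turned when control replicate 1 (0.18), control replicate 2 (0.036) or LPS replicate 3 (0.33) was left out. With the replicate block the adjusted p was 0.312, and without both replicate 3 libraries the log2 fold change was -0.048 (edgeR adjusted p = 0.764).

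Myocd, the gene of the coactivator itself, had 5, 6 and 3 counts in control and 11, 3 and 2 counts in LPS. The sums were 14 counts in control and 16 in LPS, and 3 of the 6 libraries were at or under the floor of 3 counts. A difference was not detectable at this depth. Under the setting without a count filter edgeR gave Myocd an adjusted p of 0.741.

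Compared library by library within a replicate number, 9 of 9 tested genes were lower in LPS in all 3 pairs, and 34.6% of all tested genes were. Control was above LPS by 3.30-, 3.40- and 5.70-fold for Acta2 in replicates 1, 2 and 3. For Des the ratios were 3.67, 4.42 and 3.05, and for Cnn1 3.50, 3.72 and 3.67. Cnn1 thus changed by nearly the same factor in each pair, whereas Acta2 changed most in replicate 3. For Synpo2 the ratios were 1.04, 1.07 and 2.18, and for Smtn 1.17, 1.30 and 1.37. Replicate 3 held the lowest value of 7 of the 9 genes in control and of 8 of the 9 in LPS. Without both replicate 3 libraries, where 20.4% of all tested genes were called lower, 7 genes were again called lower, with log2 fold changes of -1.72 for Acta2, -1.25 for Actg2, -1.94 for Myh11, -1.02 for Tagln, -1.82 for Cnn1, -1.74 for Lmod1 and -1.97 for Des. With a single library left out the count of 7 fell to 5 without control replicate 1 (1.25% of all tested genes called lower), to 4 without control replicate 2 (0.720%) and to 6 without LPS replicate 1 (1.44%), 2 (1.04%) or 3 (9.13%), and was 7 without control replicate 3 (6.66%).

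**Figure D2:**
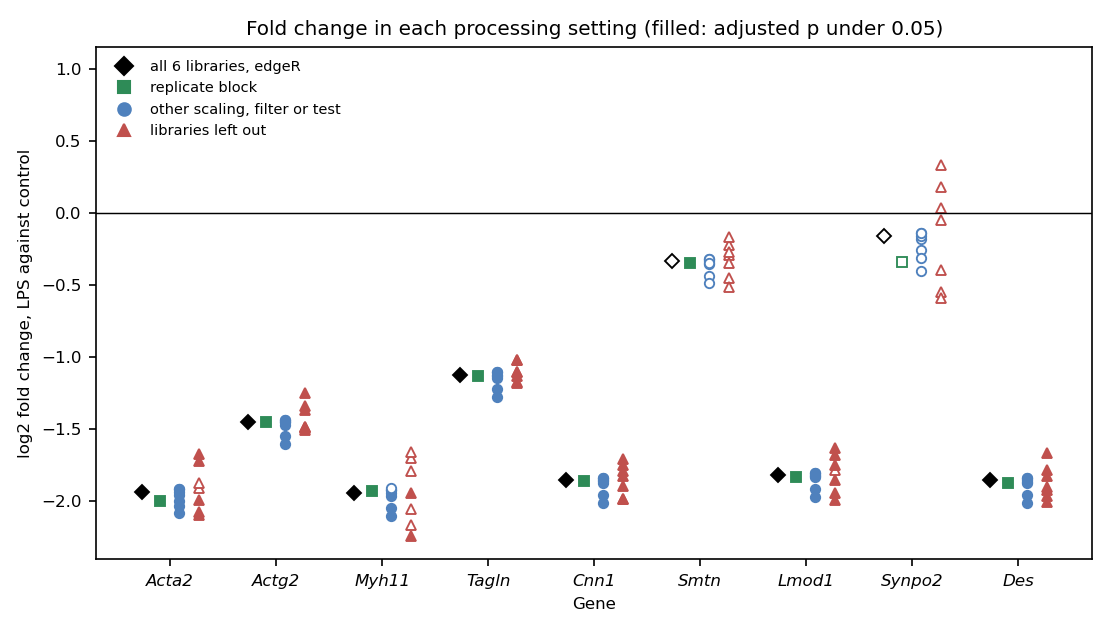
log2 fold change (LPS against control) of each tested gene with all 6 libraries in edgeR (black), with the replicate block (green), with other scaling, filters or tests (blue) and with 1 library or both replicate 3 libraries left out (red); filled symbols have an adjusted p under 0.05. Actg2, Tagln, Cnn1 and Des are filled throughout, Myh11 loses its call in most fits with a library left out, and Synpo2 scatters around 0.

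To set the genes beside each other, CPM was divided by the exon length in kilobases (kb). In control the order was Acta2 (527 ± 48.1 CPM per kb, SD, n = 3), Tagln (397 ± 11.4), Actg2 (84.1 ± 9.30), Des (70.9 ± 6.90), Smtn (16.5 ± 2.82), Cnn1 (12.5 ± 2.34), Lmod1 (7.71 ± 1.47), Myh11 (4.71 ± 1.98), Synpo2 (1.11 ± 0.63) and Myocd (0.031 ± 0.011). In this order, Smtn and Cnn1 were the sole neighbours whose libraries overlapped. In LPS, Tagln (182 ± 23.6 CPM per kb) stood before Acta2 (138 ± 47.4), with overlap between them, followed by Actg2 (30.8 ± 3.33), Des (19.7 ± 4.80), Smtn (13.1 ± 3.22), Cnn1 (3.45 ± 0.70), Lmod1 (2.19 ± 0.56), Myh11 (1.22 ± 0.47), Synpo2 (0.99 ± 0.71) and Myocd (0.042 ± 0.037). Overlap was also found between Des and Smtn, Cnn1 and Lmod1, and Myh11 and Synpo2. The ratio of Acta2 to Tagln per kb was 1.35, 1.40 and 1.23 in control and 0.841, 0.845 and 0.536 in LPS, so that the 2 most abundant genes traded places in every library. Among all tested genes, Acta2 moved from percentile 99.7 to 98.1 and stayed an abundant transcript, while Cnn1 moved from percentile 74.8 to 41.6 and Myh11 from 48.9 to 23.4.

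Next, each muscle form was set against the non-muscle forms of its family, as a share of the family's CPM per kb. Such shares do not depend on the scaling of the library. With 3 against 3 libraries an exact permutation test cannot go below p = 0.1, so none was run. Acta2 made up 32.0%, 32.1% and 24.7% of the actin family in control and 13.6%, 13.1% and 4.13% in LPS. Actg2 went from 4.45 to 4.96% in control to 1.34 to 2.75% in LPS, while Actb, cytoplasmic β-actin, went from 46.5 to 54.7% in control to 62.2 to 83.0% in LPS. None of these 3 ranges overlapped between the groups, and those of Actg1, cytoplasmic γ-actin, did (15.5 to 16.7% and 11.5 to 21.4%). Actb itself was at 2009 and 2182 CPM in LPS replicates 1 and 2 and at 4473 CPM in LPS replicate 3. Its log2 fold change was 0.28 (edgeR adjusted p = 0.626), and it was -0.19 without LPS replicate 3 and -0.030 without both replicate 3 libraries.

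In the myosin heavy chain family, Myh11 went from 5.28%, 5.58% and 2.28% in control to 1.69%, 1.59% and 0.729% in LPS. Myh9, non-muscle myosin IIA, went from 66.6 to 81.4% in control to 87.6 to 91.7% in LPS. Myh10, non-muscle myosin IIB, fell along with Myh11: its share was 16.4 to 28.1% in control and 7.54 to 10.8% in LPS, and its log2 fold change was -1.62 (edgeR adjusted p = 0.0129). Leaving out control replicate 1, control replicate 2 or LPS replicate 2 took Myh10 over the threshold (adjusted p of at most 0.0668). Myh9 was not called (log2 fold change 0.10, edgeR adjusted p = 0.604; -0.0052 for upper-quartile factors and -0.056 for library size alone), except without both replicate 3 libraries, where it was higher (0.18, 0.0270).

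Tagln held 79.3%, 78.2% and 70.6% of the sum of Tagln and Tagln2 in control and 48.2%, 47.1% and 41.7% in LPS. Tagln2, the form found outside muscle, was called higher (log2 fold change 0.78, edgeR adjusted p = 0.0346), and lost its call without replicate 1 or 2 of either group (adjusted p from 0.0971 to 0.141). Cnn1 held 5.71 to 6.16% of the calponins in control and 2.13 to 2.29% in LPS. Cnn2 and Cnn3, the calponins of other cells, were not called (log2 fold changes -0.52 and -0.20, edgeR adjusted p = 0.181 and 0.389), but both were called lower with the replicate block (-0.53 and -0.20, 0.00902 and 0.0491). Des held 12.98%, 11.4% and 14.3% of the sum of Des and Vim in control and 4.69%, 3.32% and 6.55% in LPS. Vim, the vimentin of mesenchymal and glial cells, was not called (log2 fold change -0.29, edgeR adjusted p = 0.207), and was called lower with the replicate block (-0.29, 0.0298). Without both replicate 3 libraries edgeR also called Cnn2 (-0.45, adjusted p = 0.000673) and Vim (-0.24, 0.00954) lower. In each of the 5 families the muscle forms held a smaller share in every LPS library than in any control library.

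**Figure D3:**
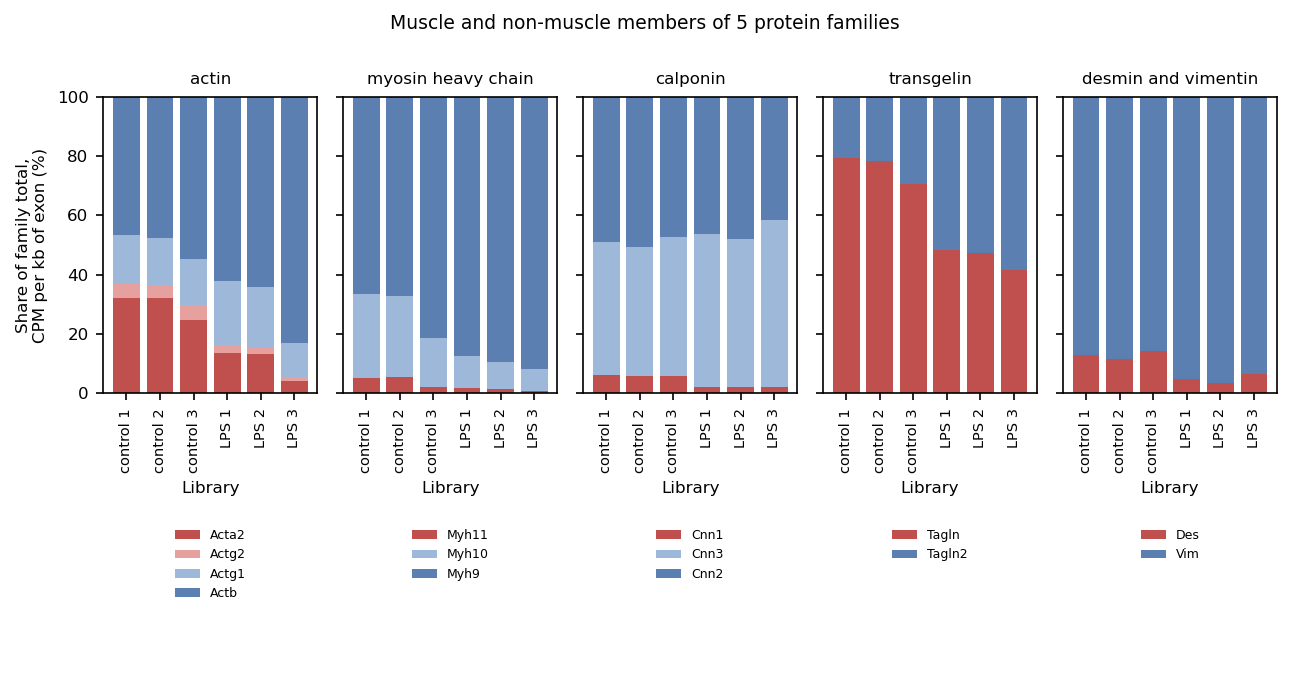
Share of each family's CPM per kb of exon, in percent, taken by muscle forms (red) and non-muscle forms (blue) in each of the 6 libraries. The red share is smaller in all LPS libraries than in all control libraries in the 5 panels, from 70.6 to 79.3% down to 41.7 to 48.2% for Tagln; Acta1 and Actc1, at most 0.131% of the actins, count in the total and are not drawn.

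The rest of the contractile machinery was described with 4 lists: thin filament and attachment proteins, myosin light chains and their regulation, excitation and calcium handling, and transcriptional regulators. Of their 59 tested genes, 14 were called lower and 1 higher, against 6.71% of all tested genes called lower and 9.09% called higher. For counts under other settings given below, the share of all tested genes called lower was 10.4% with upper-quartile factors, 13.5% with library size alone, 11.0% with DESeq2, 14.9% with the replicate block and 20.4% without both replicate 3 libraries. Among 19 genes of the thin filament and its attachment, 8 fell and none was called higher, with a median log2 fold change of -0.62 (11 lower and 0 higher at an unadjusted p under 0.05 in edgeR). They included the tropomyosins Tpm1 (-0.72, edgeR adjusted p = 0.0453) and Tpm2 (-1.17, 0.00826), which lie along the actin filament, and vinculin (Vcl, -0.84, 0.0278), which ties actin to adhesion sites. Fhl1, an adaptor with LIM domains, had means of 73.5 ± 9.45 CPM (SD, n = 3) and 25.3 ± 4.01 CPM (SD, n = 3) in control and LPS (log2 fold change -1.54, edgeR adjusted p = 0.00351). Itga8, the α8 integrin chain of contractile mesenchyme, had a log2 fold change of -1.76 (edgeR adjusted p = 0.0328). Pdlim3 and Lpp were also among the 8. Caldesmon (Cald1) was not called (0.04, edgeR adjusted p = 0.889), and its sign turned with upper-quartile factors (-0.064), library size alone (-0.12) and without LPS replicate 1 (-0.056). The count of 8 was 13 with the replicate block and 13 without both replicate 3 libraries, and calls higher were made without LPS replicate 3 (1) and without both replicate 3 libraries (2). Without a single library it was 2 (control replicate 1), 1 (control replicate 2), 7 (control replicate 3), 2 (LPS replicate 1), 2 (LPS replicate 2) and 5 (LPS replicate 3), and Fhl1 was the only one of the 8 called in all 15 alternatives.

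Of 12 genes of the myosin light chains and their regulation, Myl6, Myl9 and Mylk fell and none was called higher, with a median log2 fold change of -0.16 (5 lower and 0 higher at an unadjusted p under 0.05 in edgeR). Myl9 encodes the regulatory light chain of smooth muscle myosin. It was at 153.2, 167.6 and 158.9 CPM in control and 52.6, 55.8 and 48.5 CPM in LPS, replicate 3 included. The groups were tight and far apart, with a log2 fold change of -1.61 (SE 0.08, edgeR adjusted p = 0.000353), and Myl9 was called in all 15 alternatives. Mylk, the light chain kinase, had a log2 fold change of -1.32 (edgeR adjusted p = 0.00963), and missed the threshold without control replicate 2 (0.0570) or LPS replicate 2 (0.0544). Myl6, the essential light chain shared with non-muscle myosin, had a smaller change (-0.28, edgeR adjusted p = 0.0496) and lost its call in 7 of the 15 alternatives. Rhoa and Rock2, the GTPase and the kinase that hold the light chain phosphorylated, were not called (log2 fold changes -0.04 and -0.51, edgeR adjusted p = 0.796 and 0.0760). With the replicate block Rock2 was called lower (-0.49, edgeR adjusted p = 0.0149), as it was with library size alone (0.0471), with DESeq2 (0.0272), without control replicate 3 (0.0214) and without both replicate 3 libraries (0.000358). The count of 3 was 1 without control replicate 2 or LPS replicate 2, 5 with library size alone and 5 without both replicate 3 libraries, and no setting called any of the 12 higher.

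Of 13 tested genes of excitation and calcium handling, 3 fell and none was called higher, and the median log2 fold change was -0.87 (5 lower and 0 higher at an unadjusted p under 0.05 in edgeR). The 3 were Itpr1, the inositol trisphosphate receptor (-0.69, edgeR adjusted p = 0.0396), Gucy1a3, a chain of soluble guanylate cyclase (-1.93, 0.0123), and Prkg1, the cGMP-dependent kinase (-1.42, 0.0197). Gucy1a3 was at 40.7, 40.8 and 25.8 CPM in control and 7.61, 7.63 and 12.9 CPM in LPS. Its partner chain Gucy1b3 did not overlap between groups but was not called (-1.16, edgeR adjusted p = 0.0615). It was called lower with the replicate block (-1.08, edgeR adjusted p = 0.0225), and its adjusted p ran from 5.9e-05 to 0.194 over the alternatives. Other genes of calcium storage and of cGMP were not called: Pde5a, the cGMP phosphodiesterase (-0.89, edgeR adjusted p = 0.195), Ryr2, the ryanodine receptor (-0.57, 0.570), Casq2, calsequestrin (-1.63, 0.305), and Atp2a2, the calcium pump (0.06, 0.750; its sign turned under 4 alternatives). Of these, Pde5a was called lower with the replicate block (-0.82, edgeR adjusted p = 0.0198) and without control replicate 3 (0.0411), Casq2 without LPS replicate 3 (0.00482), and Pde5a, Ryr2 and Casq2 without both replicate 3 libraries (6.12e-05, 0.0173 and 0.00027). The muscarinic receptors of gut muscle followed replicate 3 more than LPS. Chrm2 was at 25.5, 21.7 and 2.81 CPM in control and 11.8, 11.0 and 2.77 CPM in LPS, and Chrm3 at 14.3, 12.3 and 2.27 CPM and at 9.83, 9.25 and 2.72 CPM. Neither was called (edgeR adjusted p = 0.497 and 0.760) except without both replicate 3 libraries, where both were lower (log2 fold changes -1.03 and -0.45, 0.000672 and 0.0286). Phospholamban (Pln), the brake on the calcium pump, was at 2.08, 2.04 and 0.455 CPM in control and at or under the floor in all LPS libraries, and did not pass the filter. None of the 3 calls of this list remained when replicate 1 or 2 of either group was left out (edgeR adjusted p from 0.0537 to 0.145), while 5 genes were called lower with DESeq2 or library size alone, 6 without control replicate 3, 6 without LPS replicate 3, 6 with the replicate block and 12 without both replicate 3 libraries, which also gave 1 call higher.

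Of 15 tested transcriptional regulators, none was called lower and 1 higher, with a median log2 fold change of -0.15 (1 lower and 1 higher at an unadjusted p under 0.05 in edgeR). Srf was at 53.6, 49.4 and 52.4 CPM in control and 60.9, 57.9 and 51.5 CPM in LPS. The groups overlapped (log2 fold change 0.13, edgeR adjusted p = 0.356; -0.022 with library size alone), and Srf was called higher without both replicate 3 libraries (0.23, edgeR adjusted p = 0.0414). The genes of the myocardin-related factors, Mkl1 and Mkl2, were at -0.15 and -0.32 (edgeR adjusted p = 0.164 and 0.180). Mkl1 was called lower with upper-quartile factors (-0.25, edgeR adjusted p = 0.0402) and library size alone (-0.30, 0.0231). Mkl2 was called lower with the replicate block (-0.33, edgeR adjusted p = 0.0311), library size alone (-0.48, 0.0399) and without both replicate 3 libraries (-0.35, 0.0221). Elk3, an ETS factor that binds SRF at the place myocardin uses, rose, with means of 103 ± 1.96 CPM (SD, n = 3) and 154 ± 2.21 CPM (SD, n = 3) in control and LPS (log2 fold change 0.59, edgeR adjusted p = 0.00356) and was called in all 15 alternatives. Klf4, which opposes the contractile genes in cultured muscle cells, was at -0.30 (edgeR adjusted p = 0.573), and was called lower with the replicate block (-0.29, 0.0372) and without both replicate 3 libraries (-0.28, 0.0168). Mef2c was at 37.5, 48.3 and 78.5 CPM in control and between 12.8 and 30.0 CPM in LPS, without overlap, and was not called (-1.56, edgeR adjusted p = 0.0674). The replicate block brought Mef2c under the threshold (-1.60, edgeR adjusted p = 0.00277), and its adjusted p ran from 0.000152 to 0.199 over the alternatives. With the replicate block 5 regulators were called lower, and 1 higher. The count of 0 lower was 2 with upper-quartile factors, 3 with library size alone, 1 with DESeq2, 2 without LPS replicate 3 and 6 without both replicate 3 libraries.

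**Figure D4:**
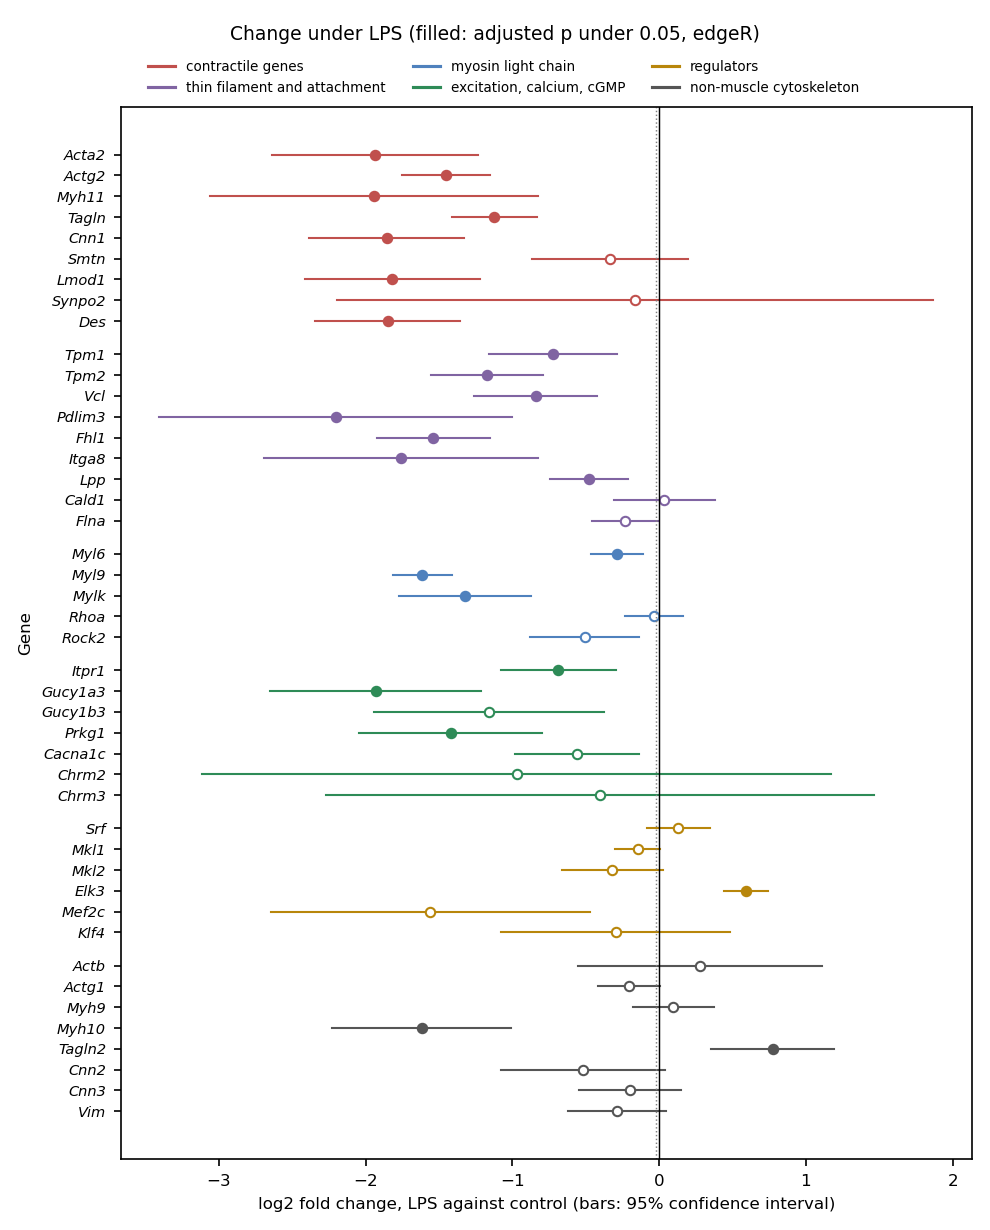
log2 fold change (LPS against control) with its 95% confidence interval for the 9 tested contractile genes and for a selection from the lists of thin filament, light chain, excitation, regulator and non-muscle genes; filled points have an edgeR adjusted p under 0.05 and the dotted line is the median of all tested genes, -0.02. The contractile genes other than Smtn and Synpo2 lie between -1.94 and -1.12. Among the regulator and non-muscle genes drawn, Elk3 (0.59), Tagln2 (0.78) and Myh10 (-1.62) are filled. The others are open and run from Mef2c (-1.56) to Actb (0.28).

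Markers of cells that also express these genes were read beside them. The 10 contractile genes summed to 2619, 2617 and 2354 CPM in control and 1002, 966.6 and 685.5 CPM in LPS. Over the same libraries the 8 mesenchymal markers summed to 17438, 16996 and 17062 CPM and to 16603, 17253 and 16896 CPM. The contractile sum was therefore 15.02%, 15.4% and 13.8% of the mesenchymal sum in control and 6.04%, 5.60% and 4.06% in LPS. The collagens Col1a1, Col1a2 and Col3a1 were the most abundant genes of the mesenchymal sum. Their means were 5837, 3560 and 4404 CPM in control and 5516, 3332 and 3638 CPM in LPS. The sum is thus mainly a collagen level and does not measure the amount of mesenchymal cells. Within the mesenchymal list edgeR called none of the 8 lower (1 at an unadjusted p under 0.05, 1 with DESeq2, 2 with the replicate block), and Pdgfra (log2 fold change 0.50, edgeR adjusted p = 0.0114) and Dcn (0.90, 0.0118) were called higher, both without a call when replicate 1 or 2 of either group was left out. Of the 8, 5 had a negative log2 fold change, the lowest being Thy1 (-1.09, edgeR adjusted p = 0.206) and Lum (-0.73, 0.0775). Lum did not overlap between the groups. Thy1 and Lum were the genes called lower with the replicate block (edgeR adjusted p = 0.0209 and 0.00581). A mesenchymal gene was also called lower with upper-quartile factors (1) or library size alone (1), without LPS replicate 3 (2) and without both replicate 3 libraries (3). The 6 pericyte markers summed to 540.2 to 636.1 CPM in control and 384.5 to 597.1 CPM in LPS, and 1 of the 6 was called lower, Notch3 (-1.28, edgeR adjusted p = 0.0220; up to 0.0902 without a library). The pericyte count was 0 without replicate 1 or 2 of either group, 2 with DESeq2, 2 without control replicate 3, 3 without LPS replicate 3 and 5 without both replicate 3 libraries, which also gave 1 call higher, as did the replicate block. The 3 markers of interstitial cells of Cajal summed to 202.5, 203.5 and 68.2 CPM in control and 87.0, 78.4 and 50.5 CPM in LPS, and 1 of the 3, Kit, was called lower (-2.12, edgeR adjusted p = 0.0473; up to 0.150 without a library; 2 of the 3 with the replicate block and 2 without both replicate 3 libraries). The 6 proliferation markers summed to 347.5, 402.8 and 674.4 CPM in control and 296.2, 263.8 and 256.1 CPM in LPS, with a median log2 fold change of -0.80. edgeR called none of them (6 were lower at an unadjusted p under 0.05, against 16.0% of all tested genes). In 5 of the 6 the LPS libraries all lay under the control libraries, against 19.4% of all tested genes. The count called lower was 1 with limma-voom (921 of all 15226 tested genes), 2 with DESeq2 (11.0%) and 2 with upper-quartile factors (10.4%). It was 3 with library size alone (13.5%), 2 with the replicate block (14.9%), 1 without LPS replicate 3 (9.13%) and 4 without both replicate 3 libraries (20.4%). The 4 mesothelial markers summed to 65.6, 59.7 and 89.0 CPM in control and 34.0, 35.7 and 55.4 CPM in LPS, without overlap. edgeR called none of the 4 (2 were lower at an unadjusted p under 0.05), with Wt1, a transcription factor of the mesothelium, at -0.73 (edgeR adjusted p = 0.0638). Of the 4, 1 was called lower with DESeq2, upper-quartile factors or library size alone, 3 with the replicate block, 3 without LPS replicate 3 and 3 without both replicate 3 libraries, which also gave 1 call higher. Wt1 was called lower with the replicate block (-0.75, edgeR adjusted p = 0.00878). The part of any of these cell types in the fall of the contractile genes was not tested.

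Of 14 striated muscle markers 5 were tested. Acta1, skeletal α-actin, was at 2.58, 2.52 and 3.84 CPM in control and 0.395, 0.334 and 0.680 CPM in LPS. It was called lower (log2 fold change -2.65, edgeR adjusted p = 0.00884) in every one of its 14 alternatives. Tnnt2 was lower (-1.76, edgeR adjusted p = 0.0389) and Ttn higher (2.84, 0.0311), both at under 4 CPM and both without a call when replicate 1 or 2 of either group was left out. Tnnt2 also lost its call with limma-voom (0.0688). A further 8 markers, Actc1, Myh6, Myh7, Ckm, Myod1, Myog, Lmod2 and Lmod3, were at or under the floor in all 6 libraries.

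The genes most like the contractile genes over the 6 libraries were sought among 11471 candidates by Pearson's r with their mean pattern, as a description. The contractile genes themselves had r from 0.841 (Smtn) to 0.992 (Lmod1) with that mean, except Synpo2 (0.538). Each of them is part of the mean, which raises its r, so these values are not comparable with those of outside genes. The highest values outside the set were those of Nudt12 (0.997), Lpar2 (0.997), Cobl (0.996), Tpm1 (0.996) and Mrvi1 (0.995), followed by Bcl2, Msrb3, Rragd, Cltb and Tmco1. All 6 points share the split by LPS and the split by replicate 3, so that a high r marks genes with both. Cobl, an actin nucleator, had means of 8.07 ± 1.42 and 2.69 ± 0.832 CPM in control and LPS (SD over 3 libraries). Mrvi1, whose protein is a target of the cGMP-dependent kinase at the inositol trisphosphate receptor, had means of 66.1 ± 17.3 and 24.7 ± 7.81 CPM (SD over 3 libraries).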

How the data were processed

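The deposited files held raw counts per gene, which the authors made from poly(A) RNA libraries of 6 samples. The submitters' processing notes name cutadapt 1.15, Bowtie2 2.3.3.1, STAR 2.5.2b, SAMtools 1.5, featureCounts 1.5.3 and the builds GRCm38 and mm10. The annotation and the strand setting of the counting are not given in the sources used here. A table of the whole series was not used.

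The counts were analysed in R 4.3.3 with edgeR 4.0.16: filterByExpr (minimum count 10, minimum total 15), TMM factors (0.917 to 1.08) and a two-sided quasi-likelihood F-test of 3 LPS against 3 control libraries, with Benjamini-Hochberg adjustment over 15226 genes. CPM are counts over the corrected sum of tested genes, given as mean ± SD. Intervals are 95% confidence intervals. Depth was 18775316 to 23664312 counts, and the floor of 3 counts was 0.124 to 0.167 CPM. Floors cover counting error only. No 2 libraries were identical. The test was tested on simulated data.

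Alternatives were relative log expression, upper-quartile and no scaling factors, no filter or at least 10 counts in every library, DESeq2 1.42.0, limma-voom (limma 3.58.1), a replicate block, each library left out, and, added after seeing the data, both replicate 3 libraries left out. What the replicate numbers mark is not stated. The deviation of each library from its group mean was correlated over genes between same-numbered libraries (r = 0.513, 0.334 and 0.613 for numbers 1, 2 and 3). All were over 0.1, and the block was run as an alternative that takes the numbers as pairs. LPS replicate 2 correlated better with control replicate 1 (0.419), and LPS replicate 1 with control replicate 2 gave 0.323. Deviations within a group cancel out, so a shared difference of replicate 3 tends to make all r among replicates 1 and 2 positive. These values set replicate 3 apart in both groups but do not show how replicates 1 and 2 pair.

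All 10 contractile genes are named. From the other lists, called genes and examples of each role are named, and some that entered the counts are not reported here. The members, lists and rules were chosen with earlier results of these data known. Similarity was Pearson's r on log2(CPM + 1) for genes over 5 CPM. Python 3.11.15 was used for lists, promoters and figures (matplotlib 3.10.9). Exon lengths, positions and overlaps come from GENCODE M21.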

Additional observations from a re-analysis of the deposited data

How the results depend on the processing

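Actg2, Tagln, Cnn1 and Des kept their direction and call in all 15 alternatives. Of 135 values of contractile genes, 122 kept direction and side of the threshold, 9 lost a call (Acta2, Myh11 and Lmod1), 1 gained one (Smtn with the replicate block) and 3 turned sign (Synpo2, which ran from -0.59 to 0.33 over the fits without 1 library, with 0.18 without control replicate 1 and 0.036 without control replicate 2). Members called lower numbered 4 to 7 over the fits without 1 library, with the lowest count without control replicate 2, and genes called lower 112 to 1426 and genes called higher 379 to 1964. The members with groups that do not overlap numbered 7, and 8 without control replicate 3, without LPS replicate 1 or without both replicate 3 libraries. Groups of fewer libraries separate more easily, and the share of all tested genes without overlap was not taken for those fits. Genes called lower numbered 1589 with upper-quartile factors, 2054 with library size alone and 1673 with DESeq2, which gave 2079 genes called higher. Over all tested genes the median log2 fold change was -0.02 (TMM), -0.12 (upper quartile) or -0.18 (library size), and genes called lower made up 42.5%, 60.2% and 67.6% of the calls. Without both replicate 3 libraries, 3159 genes were called lower and 3498 genes were called higher. The causes of these shifts were not tested. With the replicate block, 2273 genes were called lower and 2343 genes higher, and the block changed no call of a contractile gene other than Smtn. Of the other genes followed that edgeR did not call without the block, it called Pcsk7 higher and Cnn2, Cnn3, Vim, Flna, Rock2, Gucy1b3, Pde5a, Wt1, Lum, Thy1, Mrc1, Mef2c, Mkl2, Klf4 and Lpar2 lower. Of all other genes followed through the alternatives, the sign turned for Srf (-0.022, library size alone), Actb (from -0.19 without LPS replicate 3 to 0.48, and -0.030 without both replicate 3 libraries), Myh9 (-0.0052 for upper-quartile factors, -0.056 for library size), Cald1 (-0.064 for upper-quartile factors, -0.12 for library size, and from -0.056 to 0.15 without 1 library), Chrm3 (from -0.85 to 0.011 without 1 library) Gfap (from -0.74 to 0.26 without 1 library) and Atp2a2 (-0.051 for upper-quartile factors, -0.10 for library size, -0.046 without both replicate 3 libraries, and from -0.031 to 0.11 without 1 library). Depth limits Myocd alone among the 10 genes.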
